A study of Bos taurus with 9 samples.

Results

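The genes described here build and control the contractile machinery of skeletal muscle: the thin filament and Z-disc proteins that hold the sarcomere together, the proteins that link it to the cell membrane, and the membrane channels, pumps and buffers that release and recover calcium. The list held 51 genes. A probe set, the group of short probes that together read 1 transcript, was taken as a member when the array annotation gave it exactly 1 symbol and that symbol was listed. This found 56 probe sets for 32 of the genes, among 24016 probe sets tested, and 15 of the 32 genes had several. No probe set with several symbols included a listed gene. The other 19 genes, TTN, MYBPC2, MYOM1, MYOM2, MYOM3, CSRP3, XIRP2, TRIM63, DMD, CASQ1, CASQ2, RYR1, CACNG1, PVALB, TRDN, JPH2, SRL, SCN4A and CLCN1, had no such probe set and were not analysed here, which leaves the M-band, the titin filament and the ryanodine receptor out. Another 3 array control probe sets annotated to ACTA1 were read but not tested.

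Yan yellow cattle gave the samples, 3 arrays for longissimus dorsi, a muscle of the back, 3 for adipose tissue of the abdomen and 3 for the adipose layer under the skin, called subcutaneous fat here. All animals were bulls aged 24 months of 1 breed, kept under the same conditions and given no treatment that the labels name. The labels speak of 9 bulls and do not tie the 9 arrays to them, so a p-value measures only the spread between these arrays, which may be partly technical. The lipid tissue RNA kit that the labels name is given for adipose samples, and how muscle RNA was extracted is not given in the sources used here.

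In a muscle fibre, actin and tropomyosin form the thin filament, nebulin runs along it, and alpha-actinin cross-links thin filaments at the Z-disc together with telethonin, myotilin and the myozenins. Depolarisation of the membrane acts on the dihydropyridine receptor, a calcium channel and voltage sensor that is coupled to calcium release from the sarcoplasmic reticulum. The calcium pump SERCA then returns calcium to that store, where calsequestrin and similar proteins hold it. Several of these families also have members used by other cells, such as the tropomyosins in the cytoskeleton and SERCA2 in the endoplasmic reticulum.

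Values are log2 of the deposited intensities. A tissue mean under 6 is called near background here. Of all probe sets 46.5% reached 6 in muscle and 48.6% in each fat depot, and array medians lay between 5.75 and 5.92. The mean of the array medians was 0.12 higher in fat than in muscle, and centring the arrays lowers each adipose minus muscle difference below by about that amount. Between the depots the shift was -0.01. Skeletal muscle markers outside the list, such as TNNT3 (12.30) and TNNC2 (13.33), were bright in muscle. Of the 7 skeletal markers measured, 5 were lower in fat, while CKM (1.46) and MYH7 (0.60) were higher by their brightest probe set and lower by another. ADIPOQ (11.63 abdominal, 10.83 subcutaneous) and CIDEC (12.73, 12.74) were bright in fat. All 6 adipocyte markers measured were higher in fat, although 5 of them also reached 6 in muscle, where their mean level was 7.37 to 8.38 against 11.46 to 11.86 on the fat arrays. The 3′/5′ ratio of the GAPDH controls, which rises where RNA is degraded, was 0.937 to 1.01 in muscle and 1.21 to 1.74 in fat. It moved with the same contrast as the members, and its part in their differences was not tested.

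Most of the list was far lower in fat than in muscle. Compared with muscle, 45 of the 56 probe sets were lower in adipose tissue (the mean of both depots) and 7 were higher at an adjusted p under 0.05. Of all probe sets tested, 26.4% were lower and 26.2% higher by the same rule. The median difference was -5.18 over the members and -0.06 over all probe sets. By gene, 26 of 32 were lower only, TPM1, TPM3 and ASPH were higher only, ATP2A2 and CACNB1 had probe sets in both directions, and CACNA1S was not called. Every fat array lay below every muscle array for 45 member probe sets, against 22.9% of all probe sets, and above every muscle array for 7, against 21.9%. In bulk tissue, fewer cells of a type and less RNA per cell cannot be told apart.

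The members fell into those restricted to muscle and those also present in fat. In 19 genes the mean of at least 1 probe set reached 6 in muscle while none did in either depot: ACTN2, ACTN3, ANKRD1, ATP2A1, CAPN3, HRC, JPH1, LDB3, MYBPC1, MYBPH, MYOT, MYOZ1, MYOZ2, NEB, SGCA, SLN, SMPX, STAC3 and TMEM38A. Single fat arrays passed 6 for some of these, such as MYOT (6.77) and MYBPC1 (6.72) on abdominal replicate 2. SGCA lay at the border, with 6.00 in abdominal and 5.97 in subcutaneous fat. In 12 genes the mean of a probe set reached 6 in a depot: ACTA1, ASPH, ATP2A2, CACNB1, CHRNA1, DES, FBXO32, FHL1, TCAP, TPM1, TPM2 and TPM3. The count of restricted genes rests on this value, being 8 with 5 in its place and 20 with 7. Of the 45 lower probe sets, 32 had both depots under 6, where the size of a difference rests on the background. Their median difference was -6.68, and -4.51 when values under 6 were set to 6. The other 13, measured on both sides, had a median of -3.61.

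**Figure D1:**
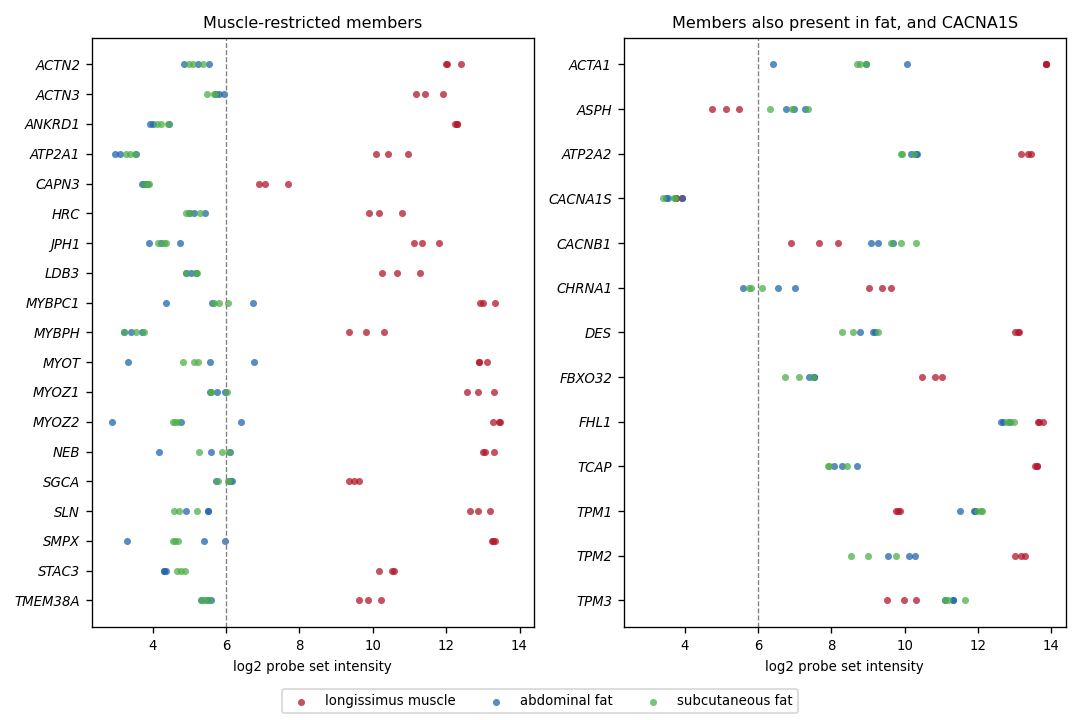
Log2 intensity of 1 probe set per gene (the one with the highest mean over 9 arrays) on each array, with muscle in red, abdominal fat in blue and subcutaneous fat in green; the dashed line marks 6. In the left panel the muscle points of the 19 restricted genes lie to the right of all fat points, and in the right panel TPM1, TPM3, CACNB1 and ASPH have their fat points to the right.

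The thin filament list was split by gene. Skeletal actin, ACTA1, read 13.84 on each of the 3 muscle arrays, close to the highest values of those arrays, which all reached 14.00 or more. In abdominal fat it read 8.96, 10.07 and 6.41 and in subcutaneous fat 8.69, 8.94 and 8.77. All fat arrays lay below muscle, and the abdominal arrays were spread over 3.66 log2 units. The difference was -5.20 ± 0.61 (SE, 3 arrays per tissue; adjusted p = 6.41e-05 with limma), and its size is not exact because muscle lies near the top of the scale. The actin genes are close in sequence, and how far this probe set reads other actins was not tested. Nebulin, NEB, the long ruler protein of the thin filament, read 13.07, 12.99 and 13.31 in muscle by its brightest probe set and 4.16 to 6.10 in fat, a difference of -7.61 ± 0.36, and its other probe sets were lower too (-6.14 and -2.16).

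The tropomyosins, which cover the actin filament and set where myosin can bind, went in different directions. TPM2, the beta chain, had 13.80, 13.68 and 13.68 in muscle by its brightest probe set there and 6.07, 7.42, 4.79, 6.34, 6.20 and 5.93 on the fat arrays (-7.59 ± 0.44). Its other probe set stayed well above background in fat, where its abdominal mean was 9.98 ± 0.38 (SD, n = 3) and its subcutaneous mean 9.10 ± 0.62, with 13.16 ± 0.14 in muscle (-3.61 ± 0.25, adjusted p = 2.49e-06). Both probe sets were lower in fat, but by different amounts. TPM1 was higher in fat by both of its probe sets. The brighter one read 9.86, 9.82 and 9.77 in muscle, 11.92, 11.88 and 11.51 in abdominal and 12.07, 12.11 and 11.96 in subcutaneous fat (2.09 ± 0.12, adjusted p = 6.36e-07), which puts the fat intensity at 426% of that in muscle. The dimmer one was near background in muscle, at 4.56, 3.81 and 4.51, and read 8.08, 6.29 and 6.63 in abdominal and 8.51, 8.12 and 8.34 in subcutaneous fat (3.37 ± 0.35). TPM3, the slow-fibre alpha chain that non-muscle cells also make, read 9.99, 9.53 and 10.31 in muscle, 11.10, 11.33 and 11.31 in abdominal and 11.10, 11.64 and 11.17 in subcutaneous fat by its brighter probe set. It was higher in fat by 1.33 ± 0.18 (adjusted p = 0.000192), and by 1.03 ± 0.25 (adjusted p = 0.00582) by the other. The fat and muscle arrays of these probe sets of TPM1 and TPM3 did not overlap. Which isoform each probe set reads was not analysed here.

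Smooth muscle, which is present in the walls of vessels, also uses tropomyosins and desmin. Of its 9 markers measured, 7 were higher in fat, among them MCAM (3.48), MYLK (2.17) and MYH11 (2.14), 1 was lower, SMTN (-1.83), and LMOD1 did not pass. Their mean level was 8.75 to 8.94 on the muscle arrays, 10.36, 10.49 and 9.93 in abdominal fat and 9.45, 9.74 and 10.10 in subcutaneous fat. On those fat arrays TPM2, by its probe set that stayed above background, read 10.13, 10.27, 9.55, 8.54, 8.99 and 9.77. The 6 arrays stood in the same order for both. They did not for the other probe set of TPM2, which was lowest on abdominal replicate 3 (4.79), nor for DES, highest on subcutaneous replicate 3 (9.26). The order also differed for TPM1 and TPM3, whose brighter probe sets were highest on subcutaneous replicate 2 (12.11 and 11.64). The part of these cells in the fat levels of TPM1, TPM2, TPM3 and DES was not tested.

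**Figure D2:**
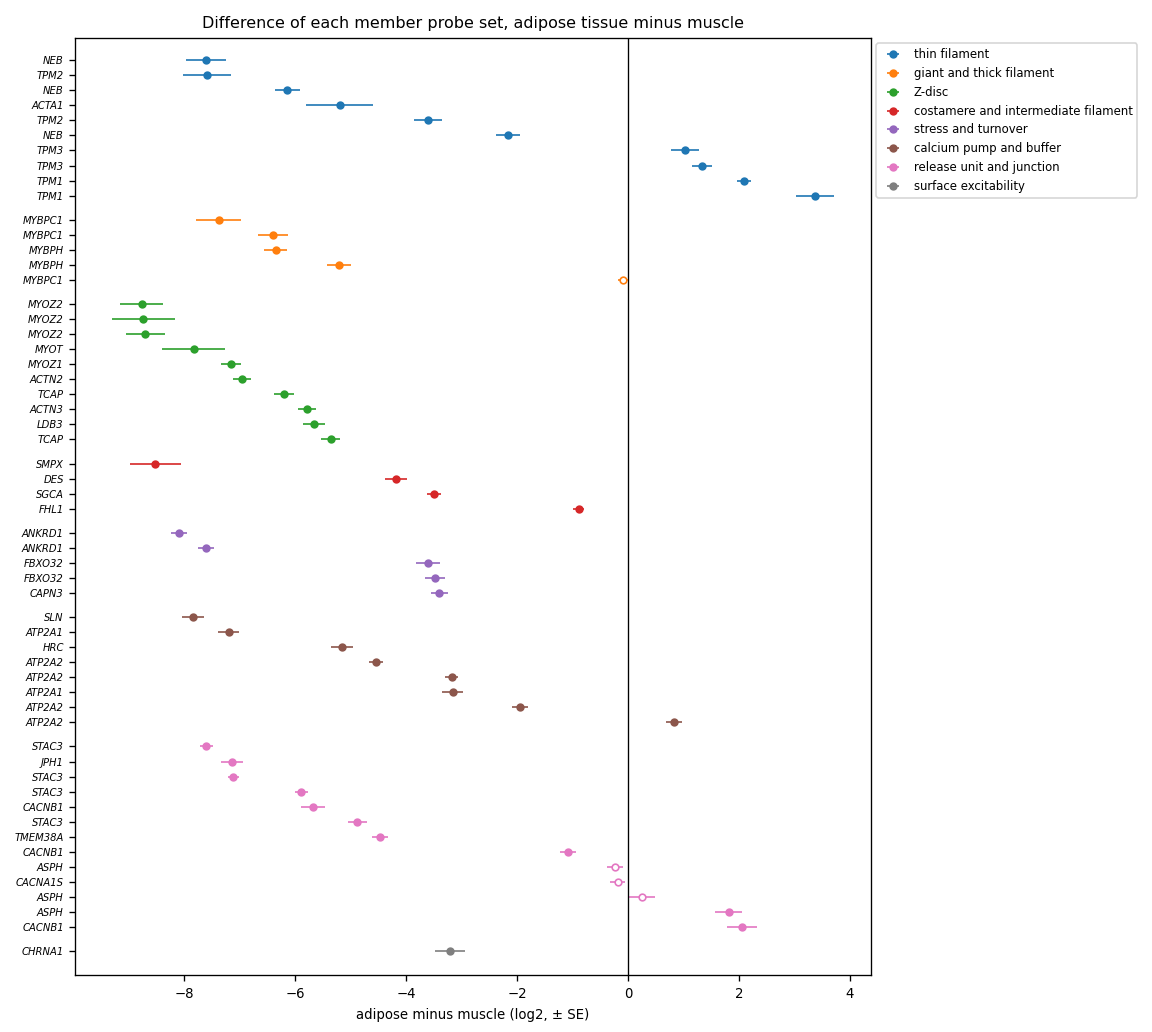
Adipose minus muscle difference (log2, ± SE, 3 arrays per tissue) of each of the 56 member probe sets, grouped and coloured by role; filled points passed an adjusted p of 0.05 and open points did not. The probe sets of TPM1, TPM3, ATP2A2, ASPH and CACNB1 to the right of 0 are the 7 that were higher in fat.

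Of the thick filament proteins, myosin binding protein C and its relative were restricted to muscle. MYBPC1, the slow type of this myosin-binding regulator, read 12.93 to 13.33 in muscle and 4.37 to 6.72 in fat by its brightest probe set (-7.38 ± 0.40), and a second one differed by -6.40 ± 0.27. A last probe set read 2.07 to 2.36 on all 9 arrays and did not differ (-0.09, adjusted p = 0.427), so it gave no measure of the gene. MYBPH, myosin binding protein H, differed by -6.35 ± 0.21 and -5.21 ± 0.21.

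All 10 Z-disc probe sets were lower in fat, by 5.36 or more on the log2 scale. The 3 probe sets of MYOZ2, the slow-fibre myozenin that ties calcineurin to the Z-disc, had the largest measured differences of the list, at -8.77 ± 0.38, -8.74 ± 0.57 and -8.70 ± 0.35. The probe set of the middle difference read 13.44, 13.27 and 13.47 in muscle and 2.89 to 6.42 in fat. With values under 6 set to 6, the 3 differed by -7.08, -7.39 and -6.19, and the largest difference of the list was then that of TPM2 (-7.59). The size for TPM2 is not exact, because its muscle values lie near the top of the scale. The fast-fibre MYOZ1 read 12.88, 13.30 and 12.56 in muscle and 5.57 to 6.03 in fat (-7.16 ± 0.18). Myotilin, MYOT, an actin-bundling protein, read 12.90, 12.90 and 13.11 in muscle, 5.55, 6.77 and 3.33 in abdominal fat and 4.83, 5.12 and 5.23 in subcutaneous fat (-7.83 ± 0.57). The alpha-actinins ACTN2, present in all fibres, and ACTN3, of fast fibres, differed by -6.96 ± 0.17 and -5.79 ± 0.16, and the adaptor LDB3 by -5.66 ± 0.20.

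Telethonin, TCAP, which caps titin at the Z-disc, was the Z-disc member also present in fat. By the probe set brighter in fat it read 13.61, 13.54 and 13.62 in muscle, 8.29, 8.71 and 8.07 in abdominal fat and 7.91, 7.93 and 8.43 in subcutaneous fat. The fat arrays were more than 4 log2 units below muscle and more than 1 above the background value of 6. The difference was -5.36 ± 0.17 (adjusted p = 1.54e-08), and -6.21 ± 0.18 by its other probe set. These sizes are not exact, because muscle lies near the top of the scale for both.

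The proteins that link the sarcomere to the membrane and its surroundings were lower in fat by very different amounts. SMPX, a small protein of the costamere, read 13.27, 13.32 and 13.24 in muscle and 3.31 to 5.96 in fat (-8.52 ± 0.46). Alpha-sarcoglycan, SGCA, part of the dystrophin complex, differed by -3.50 ± 0.13. Desmin, DES, the intermediate filament of muscle cells, had a muscle mean of 13.07 ± 0.06 (SD, n = 3). It read 9.15, 9.19 and 8.77 in abdominal fat and 8.30, 8.58 and 9.26 in subcutaneous fat, lower than muscle (-4.19 ± 0.20) yet above the background value on every fat array. FHL1, a LIM-domain protein, had the smallest called decrease of the list. It read 13.64, 13.66 and 13.76 in muscle, 12.87, 12.67 and 12.63 in abdominal fat and 12.85, 12.97 and 12.78 in subcutaneous fat (-0.89 ± 0.10, adjusted p = 5.92e-05). Its fat intensity was 53.9% of the muscle value, a size that is not exact because muscle lies near the top of the scale here too. The arrays of fat and muscle did not overlap.

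Stress and turnover genes were lower throughout. ANKRD1, a stress-responsive repeat protein, read 12.29, 12.30 and 12.23 in muscle and 3.92 to 4.44 in fat (-8.09 ± 0.14), with little spread in either tissue. The muscle calpain CAPN3, a protease bound to titin, was dim in muscle (6.89, 7.05 and 7.68) and differed by -3.40 ± 0.16. FBXO32, the ubiquitin ligase known as atrogin-1, read 10.84, 10.47 and 11.03 in muscle and stayed above background in fat, at 7.54, 7.52 and 7.38 in abdominal and 7.49, 6.74 and 7.12 in subcutaneous fat. It differed by -3.48 ± 0.18 and, by its other probe set, by -3.61 ± 0.22.

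Among the calcium pumps and their partners, the fast-fibre pump ATP2A1 (SERCA1) was restricted to muscle. It read 10.10, 10.96 and 10.42 there and 2.97 to 3.54 in fat (-7.20 ± 0.19), and its second probe set differed by -3.16 ± 0.19 with a muscle mean of only 5.75. Sarcolipin, SLN, a small inhibitor of the pump, read 12.87, 13.19 and 12.66 in muscle, 5.50, 5.51 and 4.90 in abdominal fat and 4.73, 5.20 and 4.58 in subcutaneous fat (-7.84 ± 0.20). HRC, a calcium-binding protein inside the store, differed by -5.15 ± 0.20. The slow-fibre and housekeeping pump ATP2A2 (SERCA2) was present in all tissues and its 4 probe sets disagreed. The brightest read 13.18, 13.36 and 13.45 in muscle and 9.89 to 10.34 in fat (-3.18 ± 0.12), the next brightest differed by -4.54 ± 0.13, and the dimmest by -1.95 ± 0.14. In contrast, the remaining probe set read 7.28, 7.42 and 7.53 in muscle, 8.30, 8.68 and 8.26 in abdominal fat and 7.79, 8.22 and 8.18 in subcutaneous fat, and was higher in fat by 0.83 ± 0.14 (adjusted p = 0.000849). None of the fat arrays overlapped with muscle for any of the 4 probe sets.

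The release unit, where the membrane channel meets the calcium store, held both muscle-restricted and shared genes. STAC3, an adaptor that the voltage sensor needs for coupling, had 4 probe sets that all fell, from -4.88 ± 0.17 to -7.60 ± 0.12. Junctophilin JPH1, which ties the store to the surface membrane, read 11.12, 11.33 and 11.80 in muscle and 3.90 to 4.74 in fat (-7.14 ± 0.20). TMEM38A, a cation channel of the store, differed by -4.47 ± 0.14. CACNA1S, the pore of the skeletal calcium channel, read 3.40 to 3.94 on all arrays, muscle included, so its probe set was near background everywhere and gave no measure of the gene.

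CACNB1, the beta subunit of that channel, had 3 probe sets with 3 different results. The brightest in muscle read 8.45, 9.25 and 9.00 in muscle and 2.69 to 3.53 in fat (-5.68 ± 0.22, adjusted p = 5.5e-08). The dimmest in muscle read 7.47, 6.77 and 7.33 in muscle and 6.02 to 6.26 in fat (-1.08 ± 0.15). The last went the other way, with 7.67, 6.89 and 8.19 in muscle, 9.69, 9.27 and 9.09 in abdominal fat and 10.32, 9.62 and 9.89 in subcutaneous fat (2.06 ± 0.27, adjusted p = 0.000143). ASPH, whose gene makes both junctin of the calcium store and an aspartate hydroxylase of many tissues, was higher in fat by its brightest probe set, at 5.14, 4.76 and 5.49 in muscle, 6.98, 6.77 and 7.29 in abdominal fat and 7.36, 6.33 and 6.94 in subcutaneous fat (1.81 ± 0.24). Its other probe sets were under 5 on every array and did not pass (-0.24 and 0.25). Of the 15 members with several probe sets, ATP2A2 and CACNB1 had one called lower and another called higher, as did 6.66% of the 2913 genes with several probe sets on the array.

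**Figure D3:**
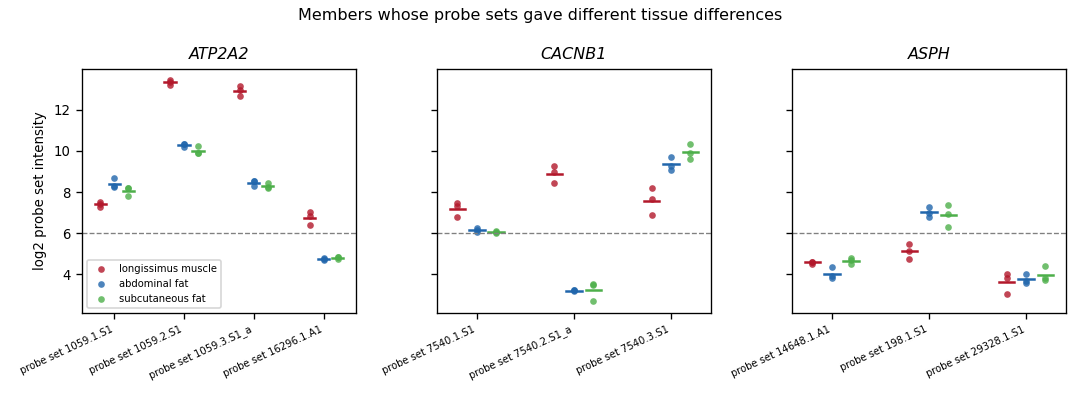
Log2 intensity on each array for the probe sets of ATP2A2, CACNB1 and ASPH, in muscle (red), abdominal fat (blue) and subcutaneous fat (green), with bars at tissue means and a dashed line at 6. One probe set of each gene was higher in fat (by 0.83, 2.06 and 1.81), while other probe sets of ATP2A2 and CACNB1 were lower.

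Of the surface excitability genes only CHRNA1, the alpha subunit of the muscle acetylcholine receptor, was measured. It read 9.02, 9.39 and 9.64 in muscle, 7.02, 5.60 and 6.55 in abdominal fat and 6.10, 5.75 and 5.80 in subcutaneous fat (-3.21 ± 0.27, adjusted p = 8.19e-06). The muscle and fat arrays did not overlap, and abdominal replicates 1 and 3 and subcutaneous replicate 1 were above the background value.

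Each depot was also set against muscle. Abdominal fat differed at 53 member probe sets, with 46 lower and 7 higher, where 23.1% and 23.5% of all probe sets were called lower and higher. Subcutaneous fat differed at 52, with 45 lower and 7 higher, against 22.4% and 24.6%. The probe set called in abdominal fat and not in subcutaneous fat was a dim one of ASPH, whose muscle mean was 4.59. These comparisons share the muscle arrays.

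Between the depots no member probe set passed the limma test, where 1.31% of all probe sets did. An unadjusted p under 0.05 was reached by 4 of 56, against 14.5% of all. As abdominal minus subcutaneous, these were a dim probe set of ASPH (-0.62, adjusted p = 0.0973), 1 of the 4 of STAC3 (-0.46, adjusted p = 0.153), the dimmer one of TPM1 (-1.32 ± 0.40, adjusted p = 0.155) and the one of TPM2 that stayed above background (0.88 ± 0.29, adjusted p = 0.19). The TPM1 probe set passed without abdominal replicate 1 (-1.86, adjusted p = 0.0209) and the ASPH one with array weights (-0.65, adjusted p = 0.0404). The arrays of the depots were fully separate for 9 of the 56, against 23.6% of all probe sets. Depot differences ranged from -1.32 to 0.88 over the members, and a missed threshold does not show that the depots are alike.

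The abdominal arrays differed among themselves at a minority of the member probe sets. Across these 3 arrays 11 of 56 member probe sets (19.6%) spanned at least 1 log2 unit, as did 3.88% of all probe sets. In 9 of the 11, from ACTA1, MYBPC1, MYOT, MYOZ2, NEB, SMPX and TPM2, replicate 2 was highest and replicate 3 lowest, and for CHRNA1 and TPM1 replicate 1 was highest and replicate 2 lowest. Over all probe sets 0.616% had such a span with replicate 2 highest and replicate 3 lowest. MYOZ2 read, by its probe set with the widest span, 4.78, 6.42 and 2.89 in abdominal fat and 4.62, 4.70 and 4.54 in subcutaneous fat. SMPX read 5.40, 5.96 and 3.31, against 4.62, 4.56 and 4.68. Over the 11 probe sets the median span was 2.35 on abdominal, 0.39 on subcutaneous and 0.26 on muscle arrays. These 11 were picked by their abdominal span, so the wider abdominal median follows from that choice. Over the 45 member probe sets lower in fat, the median span was largest on the muscle arrays (0.53). It was 0.44 on the abdominal and 0.28 on the subcutaneous arrays. In each of the 9 probe sets with replicate 2 highest and replicate 3 lowest, replicate 2 stood above, and replicate 3 below, all subcutaneous arrays. For NEB replicate 2 did so only just, at 6.10 against 6.07.

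Some other skeletal muscle markers moved with these arrays. Slow troponin T, TNNT1, read 6.13, 7.99 and 4.13 in abdominal fat, and myoglobin, MB, 7.34, 8.28 and 6.03. The fast genes of that marker list differed, with the fast myosin MYH1 highest on replicate 1 at 6.37, 5.51 and 3.97, and TNNT3 nearly level at 4.59, 4.60 and 4.47. The mean of the 7 skeletal markers measured was 7.51, 7.75 and 6.41 in abdominal fat and 7.15, 7.19 and 6.84 in subcutaneous fat, while the muscle arrays lay at 11.96 to 12.18. The GAPDH control's 3′/5′ ratio was 1.42, 1.62 and 1.26 on the same abdominal arrays. That of the EF1A control was 0.622, 0.558 and 0.473, highest on replicate 1. What the marker levels or these ratios contribute to the spread was not tested. Without abdominal replicate 2 the differences from muscle were -8.22 for MYOT, -8.79 for SMPX and -5.60 for ACTA1, and without replicate 3 they were -7.36, -8.13 and -4.69. All stayed called, and the count over the list was 53 and 52. The title of abdominal replicate 3 has another form than the others and a leading number that no other array carries. This description was chosen after the values were seen.

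**Figure D4:**
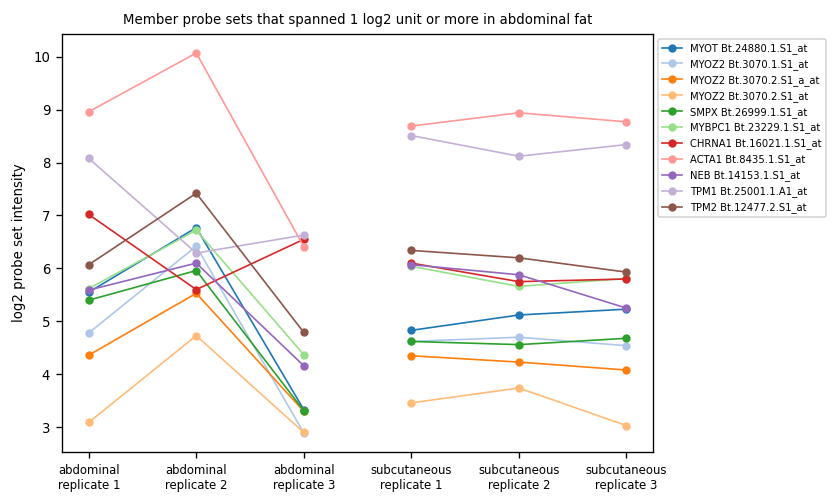
Log2 intensity on the 6 fat arrays of the 11 member probe sets that spanned at least 1 log2 unit in abdominal fat; a line joins the arrays of 1 depot for 1 probe set and implies no order of the replicates. In 9 of them abdominal replicate 2 is highest and replicate 3 lowest, while the subcutaneous arrays lie within 0.82 of each other.

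On the muscle arrays the members had a median SD of 0.28, against 0.23 over all probe sets. In abdominal fat these medians were 0.23 and 0.14, and in subcutaneous fat 0.17 and 0.16. The measured fast-fibre members ACTN3, ATP2A1 and MYOZ1 were highest on muscle replicate 2 by each of their 4 probe sets, 0.39 to 0.53 above the muscle mean. The slow-fibre members ATP2A2, MYOZ2 and TPM3 were highest on muscle replicate 3 by each of their 9 probe sets, 0.07 to 0.47 above it. TPM3 was lowest on replicate 2, at -0.54 and -0.41 from its mean. Markers of some other cell types moved with it. On muscle replicates 1, 2 and 3 the mean of the 6 adipocyte markers was 8.11, 7.37 and 8.38. That of the 4 fibroblast markers was 10.62, 9.90 and 10.72. The macrophage and nerve marker means were also lowest on replicate 2. Other lists did not move this way: the endothelial and cardiac means were highest on replicate 2, and the smooth muscle mean was lowest on replicate 1. The part of other cell types in the TPM3 values was not tested. Replicate 2 was highest for 38.1% and replicate 3 for 33.8% of all probe sets. Of the 45 member probe sets lower in fat these shares were 33.3% and 55.6%. Of the fast markers outside the list, TNNT3 and TNNC2 were highest on replicate 2 and MYH1 on replicate 3 (12.83). The slow markers were not highest on replicate 3: TNNT1 read 13.39, 13.33 and 13.33, and MYH7 10.73, 10.81 and 10.45 by its brightest probe set. Both are limited here, since TNNT1 lies near the top of the scale and that MYH7 probe set was higher in fat than in muscle (0.60). With 1 array per replicate the deviations of the members have no error of their own and were not tested.

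**Figure D5:**
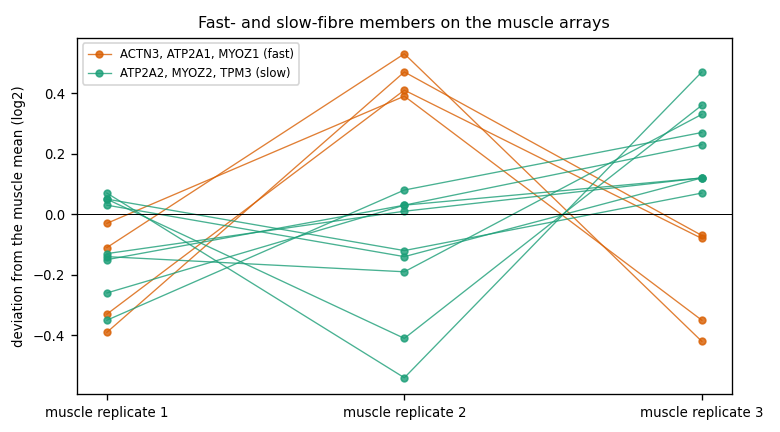
Deviation of each muscle array from the muscle mean (log2) for the 4 probe sets of fast-fibre members (orange) and the 9 of slow-fibre members (green); lines join 1 probe set and imply no order. The orange points are highest on replicate 2 and the green points on replicate 3.

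Other genes of the same machinery were read from lists by their brightest probe set, for which 29.5% of 9155 genes were lower and 32% higher in fat. Of 23 further sarcomere and costamere genes measured, 19 were lower and 1 higher, and their median was -2.83. They included KLHL41, a stabiliser of nebulin (-8.42), TMOD4, which caps the thin filament (-7.17), the myosin chaperone UNC45B (-5.82) and cardiac actin, ACTC1 (-5.69). Dystroglycan, DAG1, found in many tissues, was higher (0.67, adjusted p = 0.0459), and another of its probe sets was lower. KLHL41 read 4.60, 5.35 and 3.12 on the abdominal arrays.

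Of 16 junction and excitability genes, 10 were lower and 3 higher, with a median of -1.08. The calcium-binding S100A1 (-5.01), the channel subunit CACNG6 (-4.08), the pump inhibitor phospholamban, PLN (-4.07), and BIN1, which shapes the transverse tubules (-3.21), were lower. Higher were the acetylcholinesterase anchor COLQ (1.16, adjusted p = 0.000597), FKBP1A, which binds the ryanodine receptor and is made by most cells (1.06), and the selenoprotein SELENON (0.99), of which another probe set was lower. COLQ was higher than muscle in abdominal fat (1.79, adjusted p = 0.000118) and did not pass in subcutaneous fat (0.53, adjusted p = 0.0713), and the depots differed (1.25, adjusted p = 0.0336). PLN resembled SERCA2 in staying above background in both depots, at 8.84 and 8.81.

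Non-muscle relatives and general calcium store genes mostly went the other way. Of 22 measured, 14 were higher and 2 lower in fat, with a median of 1.02. The non-muscle alpha-actinin ACTN4 was higher by 2.71 and ACTN1 by 2.04, where the sarcomeric ACTN2 and ACTN3 were lower. Each of ACTN1 and ACTN4 also had a probe set called lower. Talin, TLN1 (2.47), the inositol trisphosphate receptor ITPR2 (2.19), filamin A, FLNA (2.13), which cross-links actin, and beta-actin, ACTB (1.38), were higher as well. The lower genes were TMEM38B, the relative of TMEM38A (-4.13), and the calcium entry channel ORAI1 (-1.19).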

How the data were processed

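The arrays were 1-colour Affymetrix bovine arrays, and the authors' deposited values are 1 linear intensity for each probe set on each array. RMA is named in the submitters' processing notes, with no settings. Here log2 of each intensity was taken. No further scaling or filter was applied. The 112 control probe sets were left out. Names came from the array annotation, updated by gene identifier to RefSeq symbols (assembly ARS-UCD2.0, names only), and 13292 of 24016 probe sets had 1 symbol. Sequences of the members were not used here.

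With limma 3.58.1 in R 4.3.3 (lmFit, eBayes), all 9 arrays entered 1 fit with a mean for each tissue, 6 residual and 3.752 prior degrees of freedom. P-values are two-sided and adjusted by the Benjamini-Hochberg method over 24016 probe sets, and those under 0.05 are called. SEs are moderated. The procedure was tested on simulated data. Python 3.11.15 with numpy 2.4.6 and pandas 2.3.3 made the tables, and matplotlib 3.10.9 drew the plots. The number of arrays limits the precision.

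The members, lists and roles were chosen with earlier results of these data known. Per-array values are given for members present in fat, members whose probe sets disagree, those with the largest and smallest differences and the brightest of each role. From other lists, up to 4 called genes with the largest difference and those against the rest of their list were named. The markers named from their lists, ACTN1, ACTB, PLN in fat, KLHL41 by array and the abdominal description were chosen after values were seen. Alternatives covered scaling, filtering, the prior, array weights, the title number as a block, the threshold, the choice of probe set, the background value and leaving out each array.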

Additional observations from a re-analysis of the deposited data

How the results depend on the processing

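Adipose tissue against muscle gave 52 member probe sets, 52 to 53 without each array in turn and 52 under the other alternatives that kept all 56 probe sets. With only probe sets over 6 on at least 3 arrays, 50 were left and all 50 passed, also in each depot. With 1 probe set per gene, 31 of 32 passed by either choice of probe set, since fewer were counted. The depot comparison gave 0, and 1 with array weights or without abdominal replicate 1 (0 to 1 over the arrays left out). The number of muscle-restricted genes was 19, and 8 with a background value of 5, and 17 to 19 without each array. The abdominal count was 50 to 54, the subcutaneous count 50 to 52 and the count of other pathway genes 46 to 52, against 53, 52 and 49. The single differences kept direction and call in 888 of 890 refits. The exceptions were the dimmest probe set of ASPH, which was not called (0.25) and reversed to -0.05 without muscle replicate 3 (-0.05 to 0.44 over the arrays left out), and another dim one of ASPH, called without abdominal replicate 2 (adjusted p = 0.0431). The cause was not tested.

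The leading number of the sample titles is shared by arrays of different tissues, except that abdominal replicate 3 has a number of its own. Arrays with the same number had correlations of their deviations from 0.043 to 0.362 over all probe sets, all positive but not all above 0.1. Arrays of different tissues with different numbers had -0.324 to 0.170, so the ranges overlapped. The highest of these was muscle replicate 3 with abdominal replicate 3, and the next was 0.091. The deviations cancel out within each tissue, so these correlations depend on each other and cannot decide whether the numbers pair the arrays. The numbers were not taken as pairs in the main fit, and whether they mark the same animals is not known. With this number as a replicate block 52 member probe sets passed in adipose tissue against muscle, 52 in abdominal fat, 52 in subcutaneous fat and 0 between the depots. Detection calls per probe set were not used here, and differences against a mean under 6 have no exact size.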

Other observations

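The 3 array control probe sets annotated to ACTA1 were, like its tested probe set, higher on every muscle array than on any fat array. The 3′ control read 13.51, 13.54 and 13.63 in muscle, 9.51, 10.52 and 7.78 in abdominal fat and 9.48, 9.40 and 9.20 in subcutaneous fat, so abdominal replicate 2 was highest and replicate 3 lowest among the fat arrays here as well. The 5′ control read 7.53, 8.01 and 6.62 in abdominal and 6.45, 6.92 and 7.26 in subcutaneous fat. The 3′/5′ intensity ratio of this control was 0.963 to 1.04 in muscle and 2.24 to 8.17 in fat.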
